A study of Mus musculus with 34 samples.

Results

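The thoracic spinal cord of trkB.T1 knockout (KO) mice was compared between day 7 after a moderate contusion, a controlled blow to the exposed cord (4 arrays), and the control condition labelled sham (4 arrays), 8 of the 34 arrays of the study. All arrays with these labels were used, and 11998 genes of the 18194 named on the array were bright enough to be tested. The study also holds day 1 and day 3 KO cords (4 and 5 arrays) and trkB.T1 wild-type (WT) cords at the same stages, of which day 7 WT and sham WT (4 arrays each) and day 3 KO serve here for comparison. The KO allele is thus carried by both main groups, and so is the C57BL/6J background (past generation N20 of backcross). Animals were 8 to 12 weeks old. Their titles say sham, but codes in the descriptions of these controls start with Nav, and whether the animals were operated on is left unsaid. The labels call the arrays of a group biological replicates, and whether an array stands for 1 animal or a pool is not given.

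TrkB, the product of Ntrk2, binds the growth factor BDNF. Its short isoform trkB.T1, made mainly by astrocytes, has no kinase domain. About a week after contusion the lesion is known to fill with phagocytes that clear myelin and dying cells, while astrocytes and fibroblasts build a scar around it. Phagocytes take up lipid-rich debris through scavenger and Fc receptors, break it down in lysosomes and can turn into lipid-laden foam cells. Cholesterol synthesis, in turn, is a process of myelin-forming oligodendrocytes and of astrocytes, and it is switched down when cells hold enough sterol. Signals are given as log2 values, so that a difference of 1 log2 unit is a 2-fold change. In whole tissue, fewer cells of a type and less RNA per cell cannot be told apart.

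Expression of Ntrk2 was checked first. On probe set 1435196_at every day 7 KO array sat at the minimum of 2.826, and so did sham KO replicates 1, 3 and 4. The library labelled sham KO replicate 2 read 8.591 there, against 9.579 to 9.84 in sham WT cords. On 1420838_at the day 7 KO arrays read 3.957, 4.241, 3.977 and 4.528, against 4.617, 9.463, 3.307 and 4.907 in the sham KO arrays. The library labelled sham KO replicate 2 thus went against its label on both probe sets that were bright in WT and dim in the other KO arrays. Over all tested probe sets it also lay nearest to the sham WT mean, but other arrays lay nearest to the other genotype too, among them sham WT replicate 2, day 7 WT replicates 2 and 4 and all day 3 WT arrays. The other tested Ntrk2 probe sets had like signals in KO and WT sham cords and were lower after injury. Probe set 1458622_at read 10.61 to 10.685 in day 7 KO cords and 11.224 to 11.379 in sham KO cords, a log2 difference of −0.67 ± 0.21 (SE, adjusted p = 0.0101, limma), and of −0.64 without the library labelled sham KO replicate 2 (adjusted p = 0.0264).

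The same library stood apart on connective tissue genes, which were picked out after their values were seen. Ogn, a small matrix proteoglycan of meninges and other connective tissue, read 10.316, 10.559, 10.918 and 10.539 in day 7 KO cords, against 10.066, 3.966, 10.234 and 10.504 in sham KO cords. Dcn (decorin) read 12.197 to 12.719 in day 7 KO cords, while the library labelled sham KO replicate 2 read 7.975 and the other sham KO arrays 11.053 to 11.195. In all, 138 tested genes lay more than 1 log2 unit below the other 3 sham KO arrays in this library, against 33, 1 and 2 genes in sham KO replicates 1, 3 and 4. Sham WT arrays also varied on these genes, with Ogn at 7.54 ± 2.08 (SD, n = 4). Named genes and list medians that lose a call or move by over 1.5 times without this library are given both ways.

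**Figure D1:**
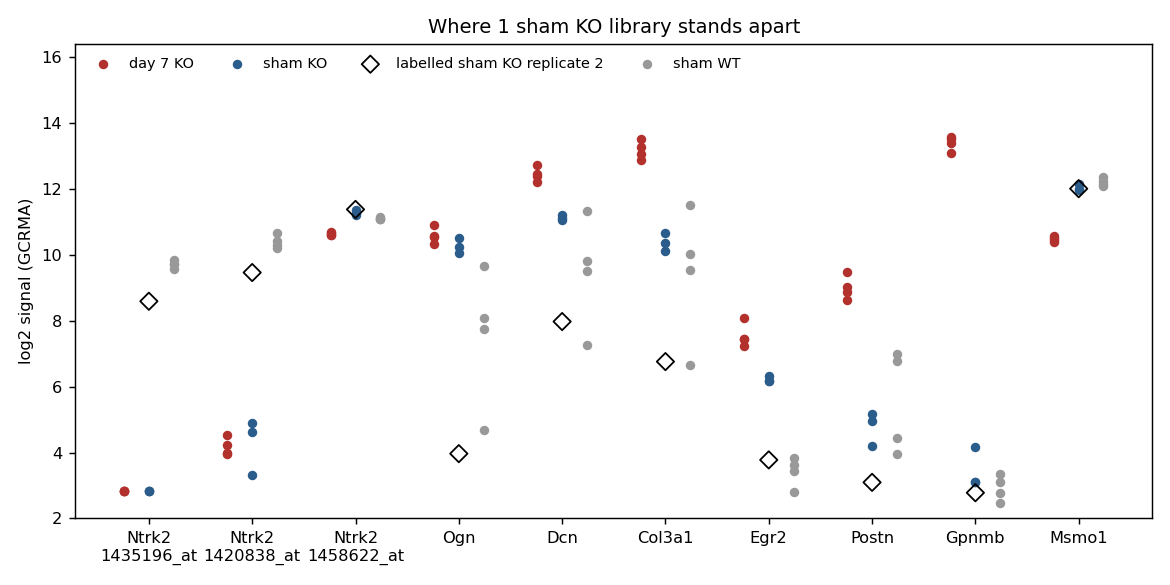
Log2 signal of 3 Ntrk2 probe sets and 7 genes in each day 7 KO (left), sham KO (middle) and sham WT (right) array, with the library labelled sham KO replicate 2 as an open diamond. It reads near sham WT on Ntrk2 probe sets 1435196_at and 1420838_at and on Egr2, lies below the other sham KO arrays for Ogn, Dcn and Col3a1, and lies with them for Msmo1.

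The tissue carried the markers of spinal cord in both groups. Slc17a6 and Gad1 (neurons), Aqp4 and Gfap (astrocytes) and Mog (oligodendrocytes) all read above 11 in the 8 arrays, and Cldn5 (endothelium) read 7.82 to 8.781 in day 7 KO cords and 8.977 to 9.197 in sham KO cords. Chat, Cd3e and Ms4a1, which mark cholinergic neurons, T cells and B cells, lay below the filter in both groups. The day 7 KO arrays correlated with each other at 0.9954 to 0.9958 on average and the sham KO arrays at 0.9896 to 0.9921. The 3′ minus 5′ signal of the Gapdh control probe sets was 0.429 to 0.456 in day 7 KO cords and 0.06 to 0.124 in sham KO cords, while that of the actin control probe sets went the other way, with 1.882 to 1.985 in day 7 KO cords and 1.989 to 2.136 in sham KO cords. Their part in the results was not tested.

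Day 7 differed from sham across much of the transcriptome. Of 24573 tested probe sets, 11603 (47.2%) passed an adjusted p of 0.05, 4866 higher (19.8%) and 6737 lower (27.4%) in day 7 KO cords. With 1 probe set for each gene, the brightest, 6364 of 11998 genes (53%) passed, 2752 higher (22.9%) and 3612 lower (30.1%). The 2 directions differed in size. Among called genes, 532 were at least 2 log2 units higher and 21 were at least 2 log2 units lower, while the median over all genes was −0.06. The 4 day 7 KO arrays did not overlap with the 4 sham KO arrays for 62.6% of genes, against which such separations below should be read. Without the library labelled sham KO replicate 2, 21.1% of genes were called higher and 25.8% lower. All 34 arrays share 1 estimate of the spread, and 2 day 1 WT arrays have labels that conflict. With these placed by source and time, the sham calls of Ak7, Bcan, Bpgm, Ccl2, Fxyd3, Gfra1, Lcn2, Ret, Slc2a1, Slc7a10, Slco1c1, Stmn4 and Vip, all described below, were lost (adjusted p = 0.0523 to 0.196).

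Genes of phagocytes led the increases. Gpnmb, a transmembrane glycoprotein of lipid-handling macrophages, read 13.588, 13.515, 13.09 and 13.391 in day 7 KO cords, against 4.174, 2.779, 3.113 and 3.113 in sham KO cords. The sham arrays lay close to the lowest signals of the platform and the injured arrays among its brightest, a log2 difference of +10.10 ± 0.50 (adjusted p = 6.12e-16). Another tested Gpnmb probe set rose by 2.06 (adjusted p = 0.000271, limma). Lgals3 (galectin-3, a sugar-binding protein of activated phagocytes) read 12.915, 12.817, 12.825 and 12.788 in day 7 KO cords, against 5.87, 4.588, 6.134 and 5.235 in sham KO cords. Cd68, a lysosomal membrane protein of macrophages, read 11.507, 11.341, 11.25 and 11.45 in day 7 KO cords, against 4.355, 3.997, 5.18 and 4.248 in sham KO cords. Both groups were tight relative to the gap, and neither gene overlapped between them (+7.38 ± 0.31 and +6.94 ± 0.29). The receptor of complement fragment C3a, C3ar1, rose by 7.45, and Clec7a (dectin-1, which recognises fungal and other glucans) by 7.34. Next came the scavenger protein Cd5l (6.96), the lipid scavenger receptors Cd36 (6.85) and Msr1 (6.55), Ch25h, the enzyme that makes 25-hydroxycholesterol (6.72), and Ms4a7, a membrane protein of macrophages (6.46). For C3ar1, Cd5l, Ch25h, Msr1 and Ms4a7 the sham KO arrays lay near the floor, with a mean below log2 3 or at least 2 arrays at the probe set's own minimum, so their differences are lower bounds. Cd36 was uneven in sham KO cords, where replicate 4 read 5.48 and the other arrays 2.556 to 3.05.

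**Figure D2:**
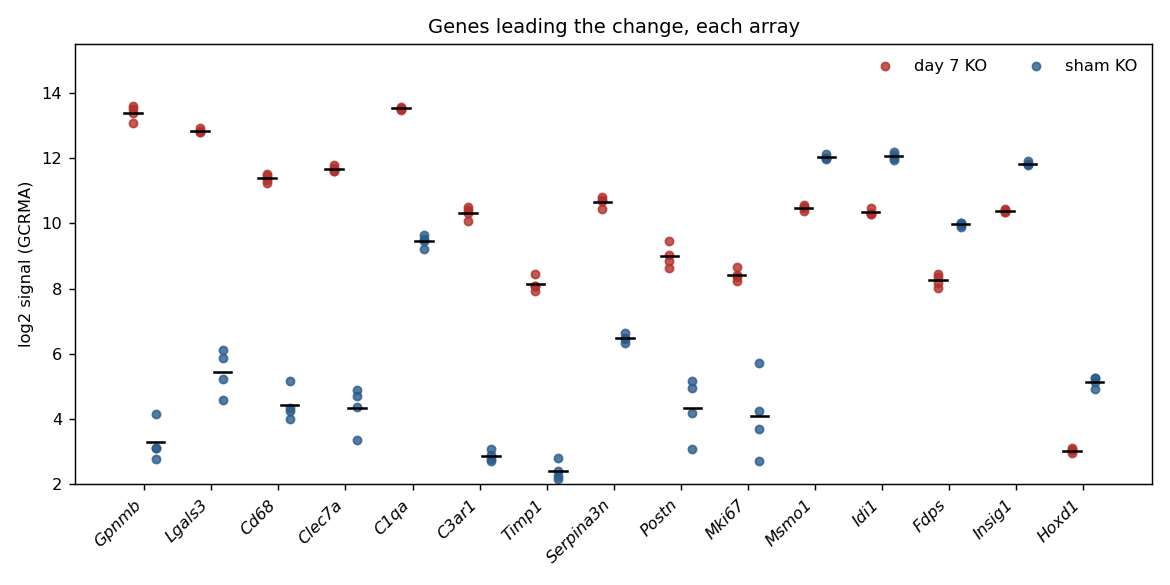
Log2 signal of 15 genes named in the text in each day 7 KO (left, red) and sham KO (right, blue) array, with black bars for the means (n = 4 each). The 2 groups do not overlap for any gene shown, and Gpnmb differs most, by 10.10 log2 units.

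The smallest p-values among increases belonged to the 3 chains of C1q, the starter of the classical complement pathway, followed by C3ar1, Cd84 and Serpina3n. C1qa read 13.571, 13.551, 13.489 and 13.515 in day 7 KO cords, against 9.532, 9.216, 9.643 and 9.45 in sham KO cords. That is a 16.8-fold increase with an error that is small beside it (+4.07 ± 0.12, adjusted p = 1.32e-20). C1qb and C1qc rose by 4.18 and 4.52, Tyrobp, the adaptor that carries Trem2 signals, by 4.56, and Cd84, an adhesion receptor of leukocytes, by 6.17. Serpina3n, a protease inhibitor that marks reactive astrocytes, rose by 4.18. Grn (progranulin, a lysosomal and secreted growth factor) rose by 3.23 and Ctsz (cathepsin Z) by 3.43.

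Foam and wound macrophage genes were raised almost as a block. Of 22 tested members 20 rose and none fell, with a median difference of +4.05, and 6 of the 22 values are lower bounds. Besides Gpnmb, Lgals3, Cd5l and Cd36, the list holds Arg1, the arginase of wound macrophages, which read 8.625, 8.876, 9.279 and 8.251 in day 7 KO cords and 2.17 to 2.381 in sham KO cords. Mean signal of the list was 9.716 ± 0.136 in day 7 KO cords and 5.508 ± 0.287 in sham KO cords (SD, n = 4 each).

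The lysosome followed. Of 31 tested genes for lysosomal enzymes and membrane proteins, 27 rose and 1 fell, with a median of +2.09. After Cd68 the largest increases were in Atp6v0d2, a proton pump subunit found in macrophages and osteoclasts (+5.46, a lower bound), Gusb (beta-glucuronidase, +4.42) and Ctsc (cathepsin C, +3.94). Gusb read 10.864 to 11.269 in day 7 KO cords and 6.484 to 6.793 in sham KO cords. The member that fell was Atp6v1b2, the proton pump subunit of brain and other tissues (−0.43 ± 0.10, adjusted p = 0.00116), so that 2 subunits of the same pump moved in opposite directions.

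Lysosomal genes are known to be switched on together by TFEB, a factor that binds the motif TCACGTG. Promoters were searched for it on both strands in the 250 bases before each RefSeq gene start (GRCm38.p6). It was found in 6 of 25 lysosomal members with a promoter in the table (24%), against 5.79% of 9691 tested genes and 3.13% of 32851 promoters. The members with the largest differences among those holding it were Ctsd (cathepsin D, +3.45) and Ctsa (cathepsin A, +2.27), shown 5′ to 3′ on the gene's strand with the motif in capitals. Ctsd lies at chr7:142388026-142388077 on the minus strand, where the motif reads on the opposite strand, 238 bases from the start, and Ctsa at chr2:164833720-164833772 on the plus strand, 6 bases from it. Lamp1 and Mcoln1, named after their values were seen, also held the motif and differed by +0.44 and −0.12, so the motif did not go with a large difference in each member.
Ctsd: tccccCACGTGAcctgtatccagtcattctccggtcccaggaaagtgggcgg
Ctsa: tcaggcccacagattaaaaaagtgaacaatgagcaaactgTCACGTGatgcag

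All 16 tested genes of Fc receptors and their ITAM signalling, a list of receptors and of signalling genes, were higher in day 7 KO cords (median +4.05, 5 of the values lower bounds). Fcgr2b, the inhibitory IgG receptor, read 10.711 to 10.901 in day 7 KO cords and 4.3 to 6.063 in sham KO cords (+5.39 ± 0.25). Trem2, a lipid-sensing receptor of microglia and macrophages, read 10.388, 10.304, 10.214 and 10.326 in day 7 KO cords, against 4.915, 5.039, 5.102 and 4.84 in sham KO cords (+5.33 ± 0.23). Fcgr4, an activating IgG receptor, rose by at least 4.89. The list mean was 8.356 ± 0.078 in day 7 KO cords and 4.433 ± 0.132 in sham KO cords, and the library labelled sham KO replicate 2 was the lowest of its group at 4.236.

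Many of these receptor genes are known targets of PU.1, the myeloid factor whose site reads GAGGAAGT. It was found on either strand in the same window of 3 of 15 members (20%), against 2.79% of tested genes and 2.44% of all promoters. Fcgr4 and Vav1, a signalling exchange factor of blood cells that rose by 3.31, had the largest differences among them. Fcgr4 is shown at chr1:171018862-171018925 on the plus strand, where the site lies on the opposite strand 16 bases from the start, and Vav1 at chr17:57279049-57279099 on the plus strand, 3 bases from it, again with the site in capitals.
Fcgr4: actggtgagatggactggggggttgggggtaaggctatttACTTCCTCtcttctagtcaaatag
Vav1: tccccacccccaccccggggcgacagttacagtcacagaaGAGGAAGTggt

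Complement genes rose for the most part. Of 11 tested members 8 rose and 1 fell (median +3.05), the largest being C3ar1 and the 3 chains of C1q. The regulators Cd59a and Cd55, named after their values were seen, differed by +0.04 and −0.22 and did not pass. Cfp (properdin, which stabilises the alternative pathway's enzyme) was called lower on its brightest probe set (−0.57, adjusted p = 0.00394) but higher on another (+1.53, adjusted p = 0.00124), so its direction is not settled. It was 1 of 87 genes with 2 probe sets called in opposite directions, among 5379 genes with several tested probe sets.

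Genes that mark microglia at rest were higher too, not lower. Of 14 tested members 13 rose and none fell (median +2.19). Fcrls, an Fc receptor-like gene of mouse microglia, read 11.183, 11.141, 11.086 and 11.113 in day 7 KO cords, against 6.51, 6.641, 6.481 and 6.781 in sham KO cords. Olfml3 rose by 3.35 and Gpr34, a lysophosphatidylserine receptor, by 2.77. Tmem119 read 7.633 to 7.814 in day 7 KO cords and 4.897 to 5.193 in sham KO cords, and P2ry12, the ADP receptor of resting microglia, read 8.771 to 8.892 in day 7 KO cords and 7.618 to 7.978 in sham KO cords. The list mean was 9.758 ± 0.019 in day 7 KO cords, the tightest of the immune lists, and 7.715 ± 0.094 in sham KO cords.

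Chemokines and cytokines were divided. Of 23 tested members 14 rose and 1 fell, with a median of +0.81. Ccl3, which attracts monocytes and macrophages, rose by at least 5.66, and Ccl12 and Cxcl16 by 4.91 and 3.87. Cxcl10, an interferon-induced attractant of T cells, read 8.107, 8.392, 8.427 and 8.721 in day 7 KO cords, against 4.477, 3.986, 4.516 and 4.477 in sham KO cords. The acute cytokines Il6, Il1b and Osm and the neutrophil attractants Cxcl1 and Cxcl2, looked at after their values were seen, did not pass (differences of −0.02 to +0.43). Il18 was the 1 member that fell, by 0.27 (adjusted p = 0.00526).

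Interferon-induced genes and antigen presentation rose together. Of 22 tested interferon-induced genes 19 rose and none fell (median +2.44), led by Usp18, which removes the ubiquitin-like ISG15 (+4.71, a lower bound), the myeloid factor Irf8 (+4.31), the DNA sensor family member Ifi204 (+4.30, a lower bound) and the antiviral tether Bst2 (+4.17). Irf8 was even within both groups, with 8.85, 8.454, 8.618 and 8.8 in day 7 KO cords and 4.561, 4.28, 4.38 and 4.269 in sham KO cords. All 14 tested members of the antigen presentation list rose (median +2.00), among them the costimulator Cd86 (+3.56, a lower bound), the immunoproteasome subunits Psmb8 (+3.44) and Psmb9 (+2.97) and the class I light chain B2m (+2.26). The median of this list was +1.69 without the library labelled sham KO replicate 2, where 13 of the 14 were called.

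Most markers of lymphocytes lay at the floor in both groups. Of 26 lymphocyte genes 3 were bright enough to test. Cd28, the T cell costimulatory receptor, read 5.86, 5.58, 5.099 and 5.812 in day 7 KO cords and 2.174 to 2.242 in sham KO cords, a difference of at least 3.39, while Cd3e read 2.17 in all 8 arrays. Cd22, an inhibitory receptor of B cells, rose by at least 2.25, while Ms4a1 read 2.181 to 2.212 in day 7 KO cords and 2.218 to 2.701 in sham KO cords. Ighm, the IgM heavy chain, was lower on each of its 3 tested probe sets, and on the brightest by 1.00 (7.724 to 8.218 in day 7 KO cords, 8.836 to 9.184 in sham KO cords, adjusted p = 0.0157). Of 11 neutrophil genes 3 rose (Csf3r by 1.98, Lcn2 by 1.86 and Mmp8 by at least 1.58). That share is near the 22.9% of all genes called higher. With the library labelled sham KO replicate 2 left out it was 27.3%, against 21.1% of all genes. Mmp8 lost its call with quantile normalization (adjusted p = 0.0773). The granule protein gene S100a8 read 10.958 to 12.429 in day 7 KO cords and 10.408 to 12.123 in sham KO cords. The median of the neutrophil list was +0.48 and, without the library labelled sham KO replicate 2, +0.18.

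Astrocyte genes split into a reactive group that rose and a resting group with no common direction. Of 24 reactive genes 22 rose and none fell (median +2.43). Timp1, an inhibitor of matrix metalloproteinases, read 8.092, 8.085, 8.452 and 7.929 in day 7 KO cords, against 2.268, 2.17, 2.815 and 2.404 in sham KO cords, a difference of at least 5.73. Ptx3, a secreted pattern recognition protein, read 7.916 to 8.85 in day 7 KO cords and 3.612 to 4.626 in sham KO cords (+4.56, a lower bound, with 2 sham KO arrays at the probe set's minimum). Gfap, the intermediate filament of astrocytes, read 13.349 to 13.462 in day 7 KO cords, against 11.56 to 11.951 in sham KO cords (+1.65). Lists overlap, and 4 reactive genes that lead here or elsewhere (Cxcl10, Lcn2, Hspb1 and Cd44) also stand in lists of other cells.

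Of 23 genes of resting astrocytes 4 rose, 4 fell and the median was +0.01 (+0.003 with the library labelled sham KO replicate 2 left out). The 4 that fell were transporters. Slc6a11, a GABA transporter, read 8.68, 8.782, 8.83 and 8.626 in day 7 KO cords, against 9.586, 9.801, 9.655 and 9.563 in sham KO cords (−0.92 ± 0.25, adjusted p = 0.00376). Slc6a9, a glycine transporter, fell by 0.73 (adjusted p = 0.000597), Slc7a10, a transporter of serine and glycine, by 0.93 and Slco1c1, a thyroid hormone transporter, by 0.76. Slc7a10 and Slco1c1 were no longer called without the library labelled sham KO replicate 2 (adjusted p = 0.0508 and 0.078), and the call of Slco1c1 was also lost without any 1 of day 7 KO replicates 1 and 2 and sham KO replicates 1 and 4 (adjusted p up to 0.104). The 4 that rose, all named after their values were seen, were Aldh1l1 (+0.64), Aqp4 (+0.62), Sox9 (+0.50) and Mlc1 (+0.47).

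Cholesterol synthesis fell as a whole. All 20 tested members were lower in day 7 KO cords, with a median of −1.32, and 19 of them were past 1.5-fold, whereas 30.1% of all genes were called lower and 11.3% were also past that fold. This pathway held 9 of the 10 smallest p-values among decreases. Msmo1, a sterol methyl oxidase, read 10.376, 10.463, 10.569 and 10.516 in day 7 KO cords, against 11.969, 12.008, 12.143 and 11.998 in sham KO cords. The arrays lay close together within each group, and the difference was −1.55 ± 0.10 (adjusted p = 1.16e-13). Another Msmo1 probe set differed by −0.40 and did not pass (adjusted p = 0.117, limma). Idi1, which makes the second isoprene building block, read 10.285, 10.302, 10.467 and 10.31 in day 7 KO cords, against 11.995, 12.104, 12.175 and 11.959 in sham KO cords (−1.72 ± 0.14). Fdps (farnesyl diphosphate synthase, −1.72) and Fdft1 (squalene synthase, −1.24) carry the chain up to squalene, and Cyp51 (−1.49), Nsdhl (−1.10) and Sc5d (−1.27) act on the sterol rings after it. Mvd, which decarboxylates mevalonate pyrophosphate, had the largest difference (5.193 to 5.971 in day 7 KO cords, 7.12 to 7.674 in sham KO cords, −1.89 ± 0.17). The sterol sensor Insig1 and the sterol carrier Stard4, both induced when sterol is low, fell by 1.44 and 1.76. The 2 groups did not overlap for any of the 20 members.

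The sterol regulatory element that the factor SREBP2 binds was searched as TCACNCCAC, on both strands of the same 250 bases. It stood in 1 of 16 members with a promoter in the table (6.2%), against 1.21% of tested genes and 1.05% of all promoters. That member was Hmgcs1, the synthase of the first committed metabolite of the pathway, at chr13:119690174-119690262 on the plus strand, 128 bases from the start. Hmgcs1 fell by 1.14. The element is in capitals.
Hmgcs1: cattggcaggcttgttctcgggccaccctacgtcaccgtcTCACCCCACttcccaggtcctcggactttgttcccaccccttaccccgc

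Myelin genes of oligodendrocytes were moderately lower. Of 20 tested members 11 fell and none rose (median −0.34), where 30.1% of all genes were called lower. Without the library labelled sham KO replicate 2, 7 of 20 fell (35%), against 25.8% of all genes. Opalin, a transmembrane protein of central myelin, read 9.895, 9.875, 10.078 and 9.808 in day 7 KO cords, against 10.999, 11.082, 11 and 10.961 in sham KO cords (−1.10 ± 0.14, adjusted p = 1.63e-07). Fa2h, which hydroxylates the fatty acids of myelin lipids, fell by 0.97, the receptor Gpr37 by 0.81 and the myelin proteolipid Mal by 0.70. Precursor and early lineage genes went the other way, with 8 of 17 higher and 2 lower (median +0.46). Bmp4, a signal made by newly forming oligodendrocytes, read 6.266, 6.668, 6.629 and 6.908 in day 7 KO cords, against 4.581 to 4.782 in sham KO cords (+1.90 ± 0.33). Matn4 and the proteoglycan core proteins Vcan and Cspg4 (NG2) rose by 1.57, 1.57 and 1.29, while Bcan and Olig1 fell by 0.37 and 0.34. Bcan was not called without the library labelled sham KO replicate 2 (adjusted p = 0.055).

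Schwann cell and nerve root genes rose in 5 of 14 cases, where 22.9% of all genes were called higher. The list median of +0.58 became +0.26 without the library labelled sham KO replicate 2. In that setting 4 of 14 rose (28.6%), against 21.1% of all genes. Egr2, the master regulator of Schwann cell myelination that macrophages also express, read 7.441, 7.24, 8.092 and 7.453 in day 7 KO cords, against 6.177, 3.776, 6.177 and 6.337 in sham KO cords (+1.94 with that library, +1.33 without it). Fxyd3 and Fxyd1, modulators of the sodium pump, rose by 1.55 and 1.28, and Dhh, a Schwann cell signal, differed by +1.02 and did not pass (adjusted p = 0.0757, or 0.0267 without sham KO replicate 4). Its difference was +0.54 with the library labelled sham KO replicate 2 left out.

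Neuronal genes fell together. Of 30 genes found in nearly all neurons, 27 fell and 1 rose (24 and 1 with the library labelled sham KO replicate 2 left out), with a median of −0.62. Ina, a neurofilament subunit, read 10.259, 10.23, 10.275 and 10.243 in day 7 KO cords, against 11.232, 11.504, 11.336 and 11.4 in sham KO cords (−1.12 ± 0.18, adjusted p = 1.35e-05). The synaptic vesicle genes Vamp1 and Sv2b fell by 1.03 and 1.01 and Dnm1, which pinches vesicles off the membrane, by 0.91. Gap43, the protein of growing axons, was the 1 member to rise (10.379 to 10.497 in day 7 KO cords, 9.985 to 10.129 in sham KO cords, +0.39). The list mean was 11.087 ± 0.017 in day 7 KO cords and 11.695 ± 0.068 in sham KO cords.

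The median of each class of neurons was below zero, and no test was made between classes. Of 15 genes of GABA and glycine neurons 10 fell and none rose (median −0.72), and 9 fell with the library labelled sham KO replicate 2 left out. They were led by the calcium buffer Pvalb (−1.51), the GABA receptor subunits Gabrb2 (−1.14) and Gabra5 (−0.96) and the vesicular transporter Slc32a1 (−0.96). Pvalb is also abundant in fast skeletal muscle, whose markers were lower in the same comparison, and the part of muscle in its value was not tested. Among 24 genes of glutamate and dorsal horn neurons 9 fell (median −0.60), including Calb2 (−1.02), the NMDA receptor subunit Grin2b (−0.97) and the peptide Cartpt (−0.95). That share is near the 30.1% of all genes called lower, and with the same library left out it was 7 of 24 (29.2%), against 25.8% of all genes. Adcyap1, which encodes the injury-induced peptide PACAP, rose against its list, with 8.081, 8.152, 8.103 and 8.314 in day 7 KO cords and 6.791, 6.355, 6.472 and 6.377 in sham KO cords (+1.66 ± 0.20). Of 8 motor neuron genes Chodl (−1.04), Prph (−0.85), Ache (−0.79) and Isl1 (−0.70) fell, and the GDNF receptor genes Ret (+0.33) and Gfra1 (+0.25) rose. Ret was not called without any 1 of day 7 KO replicates 1 and 4 and sham KO replicates 1 and 4, nor Gfra1 without any 1 of day 7 KO replicates 1 and 3 and sham KO replicate 3 (adjusted p up to 0.095 and 0.0933).

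Of 19 tested genes that neurons are known to switch on after axon injury, some of which other cells make too, 11 rose and 2 fell (median +0.66). Sprr1a, a small proline-rich protein of regrowing axons, read 8.834, 8.224, 8.542 and 9.535 in day 7 KO cords and 2.59 to 3.141 in sham KO cords, a difference of at least 6.03. Atf3, a stress-induced transcription factor, read 7.362 to 7.544 in day 7 KO cords and 2.275 to 3.698 in sham KO cords (+4.38). Hspb1 rose by 2.47. Vip, a neuropeptide, fell by 1.09 (adjusted p = 0.0292), and was not called without the library labelled sham KO replicate 2, day 7 KO replicate 4 or sham KO replicate 1 (adjusted p = 0.0625 to 0.0784), and Stmn4 by 0.34.

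Members of the list of neurotrophins and receptors were lower where they changed. The list is broader than neurotrophin receptors and includes Cntfr, the receptor of CNTF. Of 8 tested members 5 fell and none rose, with Cntfr (−0.66) beside Ntrk2. Without the library labelled sham KO replicate 2, 3 of the 5 were called, or 37.5% of the 8 tested, against 25.8% of all genes called lower. Ngfr, the low-affinity receptor p75 that Schwann cells raise after nerve injury, read 6.525, 5.212, 6.687 and 5.617 in day 7 KO cords and 5.029 to 5.215 in sham KO cords, which did not pass (+0.87, adjusted p = 0.0887). Without day 7 KO replicate 2 it did (adjusted p = 0.039).

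Matrix genes rose broadly but with a sham group that was itself uneven. Of 33 fibroblast and matrix genes 30 rose and none fell (median +2.21), against 26 and a median of +1.74 without the library labelled sham KO replicate 2. Postn (periostin, a matrix protein of scar fibroblasts) read 8.863, 8.625, 9.468 and 9.022 in day 7 KO cords, against 4.199, 3.094, 5.182 and 4.955 in sham KO cords (+4.64 with that library, +4.22 without it). Col3a1 (type III collagen) read 13.063, 12.893, 13.514 and 13.26 in day 7 KO cords, against 10.109, 6.76, 10.653 and 10.368 in sham KO cords (+3.71 with it, +2.80 without it, adjusted p = 0.00299). S100a4, a calcium-binding protein of fibroblasts and macrophages, rose by 3.97 and Col8a1, a short-chain collagen, by 3.72. Dcn and Col1a1 were called with all arrays (+2.10 and +2.50) and not without that library (+1.31, adjusted p = 0.0537, and +1.88, adjusted p = 0.0841). Ogn did not pass either way (+1.89, adjusted p = 0.106, and +0.31, adjusted p = 0.756).

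Proteoglycans, tenascins and link proteins did not move one way. Of 15 tested members 7 rose and 3 fell (median +0.40), and 8 rose and 2 fell when the library labelled sham KO replicate 2 was left out. Tnc (tenascin C), a matrix glycoprotein of wounds, read 7.598 to 7.81 in day 7 KO cords and 4.135 to 5.352 in sham KO cords (+2.80), and Tnxb rose by 1.59. Another Tnc probe set differed by +0.48 and did not pass (adjusted p = 0.163, limma). The link proteins of perineuronal nets, Hapln1 and Hapln4, fell by 1.46 and 1.14. Hapln1 read 6.705, 6.611, 6.653 and 6.865 in day 7 KO cords, against 8.177, 8.266, 8.166 and 8.052 in sham KO cords.

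Matrix proteases rose more often than they fell. Of 23 proteases and inhibitors 14 rose and 1 fell (median +1.25). Mmp12, the macrophage elastase, read 8.676, 8.48, 8.929 and 8.892 in day 7 KO cords, against 2.17, 2.54, 2.728 and 2.54 in sham KO cords, a difference of at least 6.25. The membrane protease Adam8 rose by 4.93 and the urokinase Plau by at least 3.69. Mmp17 fell by 0.81. Mmp9, the gelatinase of early injury, differed by −0.63 and did not pass (adjusted p = 0.276). It was called lower in a limma fit on only the arrays compared (adjusted p = 0.0104, or 0.0184 with replicate number as a block). Another of its probe sets differed by −0.03 and did not pass in the main fit (adjusted p = 0.967).

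Vessel genes gave no common direction. Of 26 endothelial and barrier genes 5 rose and 2 fell (median −0.20), a share called below the 53% of all genes. Vwf (von Willebrand factor) rose by 1.84 with the library labelled sham KO replicate 2, in which it read 3.727, and by 1.11 without it. Cdh5 (VE-cadherin) rose by 1.32, Ramp2 by 0.75, the amino acid transporter Slc7a5 by 0.44 and the glucose transporter Slc2a1 by 0.35, which was not called without day 7 KO replicate 4 (adjusted p = 0.0606). Apln (apelin, a peptide of endothelial tips and neurons) read 6.293, 6.549, 6.256 and 6.333 in day 7 KO cords, against 7.6, 7.758, 7.733 and 7.721 in sham KO cords (−1.34 ± 0.12), and the transferrin receptor Tfrc fell by 0.84. Of 12 pericyte and smooth muscle genes 3 rose and 1 fell, with Tagln, an actin-binding protein, highest (+3.09) and the channel subunit Abcc9 lowest (−0.74, adjusted p = 0.0386). The share that rose is near the 22.9% of all genes called higher. The median of the pericyte list was +0.42, and +0.21 without the library labelled sham KO replicate 2, where 2 of 12 rose (16.7%, against 21.1% of all genes). Abcc9 was not called without that library or any 1 of day 7 KO replicates 1, 2 and 4 and sham KO replicates 3 and 4 (adjusted p = 0.0558 to 0.0961). On another probe set Abcc9 differed by −0.08 (adjusted p = 0.84, limma). With the mean of its probe sets it was not called either (−0.41, adjusted p = 0.204).

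Genes of dividing cells were still raised at day 7. Of 29 genes of G2/M and mitosis 27 rose and none fell (median +2.38, with 10 of the values lower bounds). Mki67, the antigen of cycling cells, read 8.68, 8.414, 8.369 and 8.248 in day 7 KO cords, against 3.708, 2.719, 5.735 and 4.245 in sham KO cords (+4.33 ± 0.47). Cdk1, the kinase that starts mitosis, read 7.049 to 7.312 in day 7 KO cords and 3.092 to 3.71 in sham KO cords (+3.78), and Pbk and Top2a rose by 4.04 and at least 3.79. Another Top2a probe set differed by +0.33 and did not pass (adjusted p = 0.367, limma). Of 27 replication and G1/S genes 18 rose and 1 fell (median +0.65; 15 and 1 with the library labelled sham KO replicate 2 left out), among them Rrm2 (+3.13), which makes deoxynucleotides, the helicase subunits Mcm3 (+2.90) and Mcm6 (+2.04) and Uhrf1 (+2.27). The member that fell was Ccne1 (cyclin E1, −0.53 ± 0.08).

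Respiratory chain genes fell together and by little. Of 35 tested subunits 33 fell and none rose, with a median of −0.40, and 1 of them was past 1.5-fold. Atp5g1, a subunit of the ATP synthase ring, read 10.827, 10.925, 10.906 and 11.043 in day 7 KO cords, against 11.433, 11.636, 11.578 and 11.685 in sham KO cords (−0.66 ± 0.08, adjusted p = 9.94e-08). Ndufs1, Ndufa10 and Cyc1 fell by 0.58, 0.56 and 0.52. Iron and heme genes gave no common direction. Hmox1, which breaks down heme, read 7.728 to 8.619 in day 7 KO cords and 2.832 to 3.781 in sham KO cords (+4.82 ± 0.34), and the phagosomal metal transporter Slc11a1 rose by at least 4.42. Of 16 tested members of that list 6 rose and 2 fell, Tfrc and Slc48a1. Slc48a1, a heme transporter, fell by 0.51 on its brightest probe set, but differed by +0.17 on the other (adjusted p = 0.429) and was not called with their mean (−0.17, adjusted p = 0.188). The ferritin chain Fth1, looked at after its values were seen, differed by −0.06. Of 5 tested red blood cell genes 1 was called (Bpgm, −0.25), and it was not without the library labelled sham KO replicate 2, day 7 KO replicates 3 or 4 or sham KO replicate 3 (adjusted p = 0.0509 to 0.112).

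Hox genes, which keep the segmental address of neurons, were lower in 11 of 23 cases and higher in none (median −0.36). Of all genes 30.1% were called lower. Hoxd1 read 3.052, 2.956, 3.052 and 3.105 in day 7 KO cords, against 5.278, 5.254, 5.143 and 4.929 in sham KO cords (−2.11 ± 0.17, adjusted p = 2.43e-11). Hoxd3 fell by 0.98 and Hoxb6 by 0.80, though Hoxb6 was not called without any 1 of day 7 KO replicates 1 and 4 and sham KO replicate 1 (adjusted p = 0.0619 to 0.0876), while Hoxd10 differed by −0.92 and did not pass (adjusted p = 0.508). Outside the lists, Fam227b read 5.718 to 6.367 in day 7 KO cords and 8.406 to 8.785 in sham KO cords, and fell by 2.60. Hsd11b1, which regenerates active glucocorticoid, read 7.719 to 8.03 in day 7 KO cords and 9.772 to 9.939 in sham KO cords (−1.99 ± 0.21). Among 7 tested members of the list of ependymal and motile cilia genes, Mia (+2.87), Enkur (+1.10) and Cfap126 (+1.02) rose. Ak7 fell by 0.66, 3 members did not pass, and the list median was +0.32. Ak7 was not called without any 1 of day 7 KO replicates 1, 2 and 3 and sham KO replicates 1 to 3 (adjusted p = 0.0529 to 0.125).

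The largest decreases of all were genes of skeletal muscle, which is not a tissue of the cord. Myh4, a myosin of fast muscle fibres, read 2.637, 2.637, 3.863 and 4.063 in day 7 KO cords, against 8.224, 10.337, 9.849 and 10.421 in sham KO cords (−6.41 ± 1.86, adjusted p = 0.00576, a lower bound in size). Another Myh4 probe set differed by −1.43 and did not pass (adjusted p = 0.227, limma). Tnnc2 fell by 5.99, Tnnt3 by 5.63, Ckm by 5.18, Myl1 by 4.84, Acta1 by 4.72, Mylpf by 4.40 and Tnni2 by 4.35. Of 24 tested members 15 fell and none rose, with a median of −3.45. Day 7 KO and sham KO arrays did not overlap for 18 of the 24. The largest decreases outside the muscle list also belong to muscle fibres: Mybpc2 (−4.27), Smpx (−4.09), Ckmt2 (−3.98), Cox8b (−3.98), Myot (−3.94), Trdn (−3.80) and Apobec2 (−3.23). Sham KO cords were uneven here, and 9 of the 24 were called without the library labelled sham KO replicate 2 (median −3.31). Muscle genes also varied within other groups: Myh4 read 2.637 to 9.671 in day 7 WT cords, 2.692 to 8.54 in sham WT cords and 4.36 to 14.419 in day 3 KO cords. Single calls often turned on 1 array. Myl1, Mylpf, Myot, Smpx and Tnni2 lost their call without the library labelled sham KO replicate 2, as each did without day 7 KO replicate 1, day 7 KO replicate 2 or sham KO replicate 4 (adjusted p up to 0.151). Acta1 was not called without day 7 KO replicate 1 or 2 or sham KO replicate 4 (adjusted p up to 0.0688), Mybpc2 without the library labelled sham KO replicate 2 or sham KO replicate 4 (up to 0.0616), and Apobec2, Ckmt2 and Trdn without sham KO replicate 4 (0.0753, 0.0569 and 0.0567). Myot and Smpx were also lost without day 7 KO replicates 3 or 4 or sham KO replicate 3, Myl1 without sham KO replicate 3 and Tnni2 without day 7 KO replicate 3. The amount of muscle in each sample is unknown, and its part in these values was not tested.

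**Figure D3:**
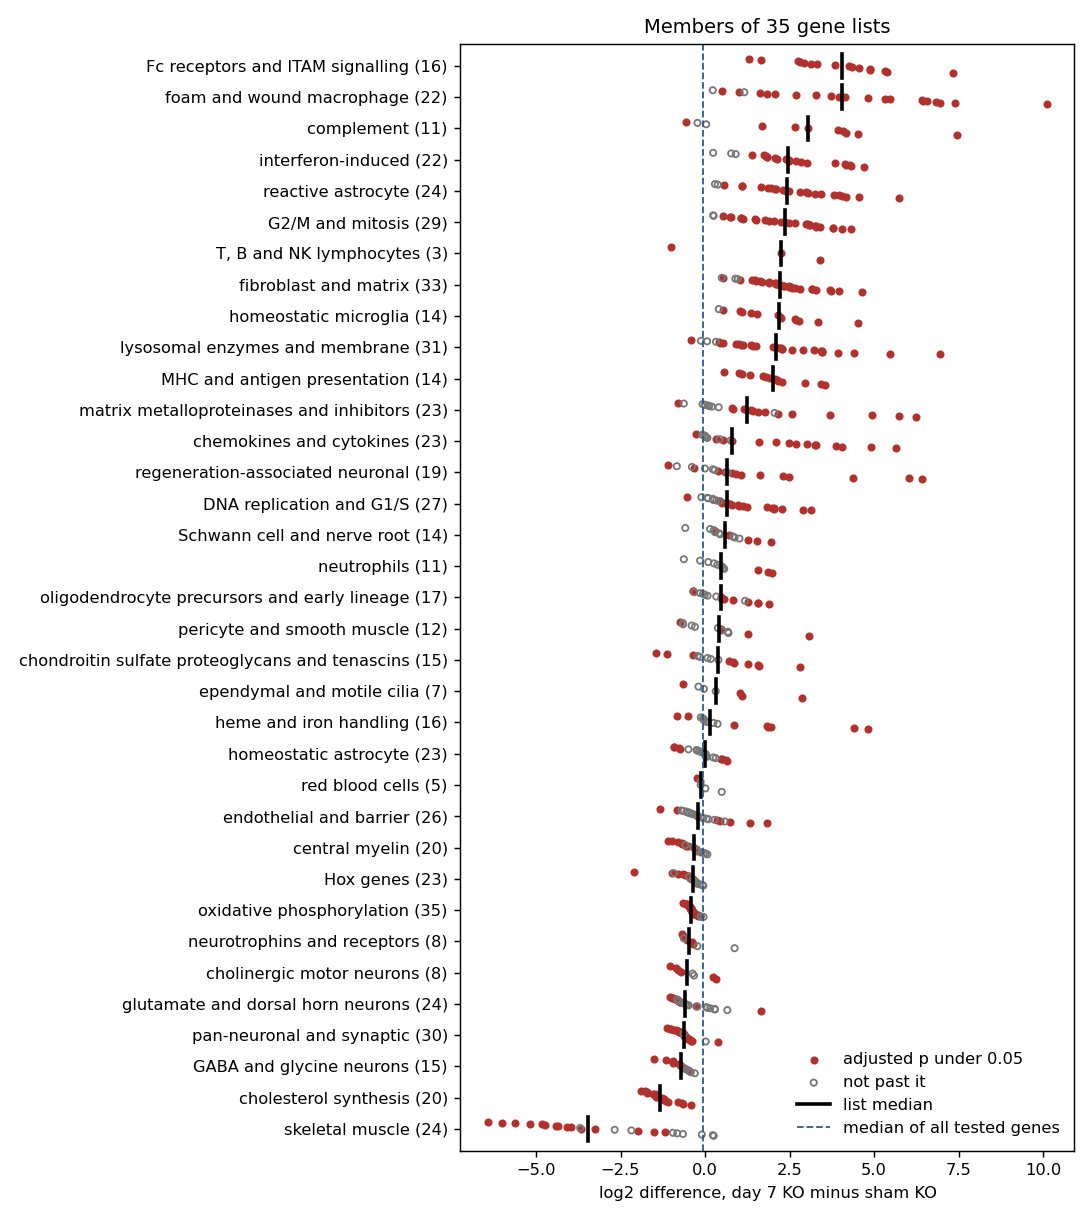
Log2 difference of day 7 KO minus sham KO for each tested member of 35 gene lists (number of members in brackets), filled where the adjusted p was under 0.05, with black bars for list medians and a dashed line for the median of all tested genes (−0.06). Phagocyte, interferon, reactive astrocyte and mitotic lists lie right of the line, and neuronal, cholesterol and muscle lists left of it.

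The question whether the response depended on the genotype was tested as the difference between day 7 minus sham in KO and day 7 minus sham in WT. Of 24573 probe sets 1 passed (0.00407%, or 0.00833% of genes), or 3 with the library labelled sham KO replicate 2 left out. An unadjusted p under 0.05 was found for 903 of the 24573 (limma). That is a smaller share than the 0.05 that chance alone would give. No member of the 35 lists passed. Some list medians lay close in both genotypes, as for foam macrophage genes (+4.05 in KO, +4.05 in WT), cholesterol synthesis (−1.32 in KO, −1.38 in WT), reactive astrocyte genes (+2.43 in KO, +2.73 in WT) and pan-neuronal genes (−0.62 in KO, −0.71 in WT). Others lay apart, among them Schwann cell and nerve root (+0.58 in KO, +1.23 in WT), pericyte (+0.42 in KO, +0.95 in WT) and heme and iron genes (+0.15 in KO, +0.65 in WT), and the endothelial list differed in sign (−0.20 in KO, +0.38 in WT). Skeletal muscle was the list whose medians lay farthest apart (−3.45 in KO, +0.11 in WT), with 0 of 24 members called for the difference and an adjusted p of 1 for each.

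The gene that passed was Cnmd (chondromodulin, a cartilage glycoprotein that inhibits vessel growth). It read 3.549, 4.177, 3.72 and 3.587 in day 7 KO cords, against 4.353, 3.841, 5.054 and 5.185 in sham KO cords. In WT cords it read 5.406, 4.523, 4.663 and 4.667 at day 7, against 3.545, 3.964, 3.68 and 3.734 in sham. It was thus lower after injury in KO (−0.85) and higher in WT (+1.08), a difference of −1.93 ± 0.31 (adjusted p = 0.0181), all at low signal. In sham KO the library labelled replicate 2 had the lowest value, and without it the difference was −2.19 (adjusted p = 0.000139). The call was lost when any of 8 other arrays was left out (day 7 KO replicates 1, 3 and 4, sham KO replicates 3 and 4, day 7 WT replicate 1, and sham WT replicates 1 and 3, adjusted p = 0.0604 to 0.0853).

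The genes next by p did not pass. Egr2 differed by −2.28 ± 0.52 (adjusted p = 0.523). It read 7.24 to 8.092 in day 7 KO cords, 6.177 to 6.337 in sham KO cords other than the library labelled replicate 2, 7.231 to 8.063 in day 7 WT cords and 2.796 to 3.841 in sham WT cords. Without that library the difference was −2.90 (adjusted p = 0.000128). Slc39a8, a zinc transporter, differed by −1.09, Tex15, a germ cell gene, by +1.30 and Hoxa10 by −2.15 (adjusted p = 0.523 each). Hoxa10 read 8.08 to 8.607 in day 7 KO cords and 8.578 to 8.942 in sham KO cords, against 7.795 to 8.109 in day 7 WT cords and 4.756 to 6.892 in sham WT cords. Hoxd10, a gene of caudal segments as is Hoxa10, read 6.386 to 7.476 in day 7 KO cords and 6.73 to 8.328 in sham KO cords, against 3.539 to 7.182 in day 7 WT cords and 2.17 to 2.428 in sham WT cords. In both genes the sham WT cords stood lowest of the 4 groups (difference for Hoxd10 −4.13 ± 1.52, adjusted p = 1).

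**Figure D4:**
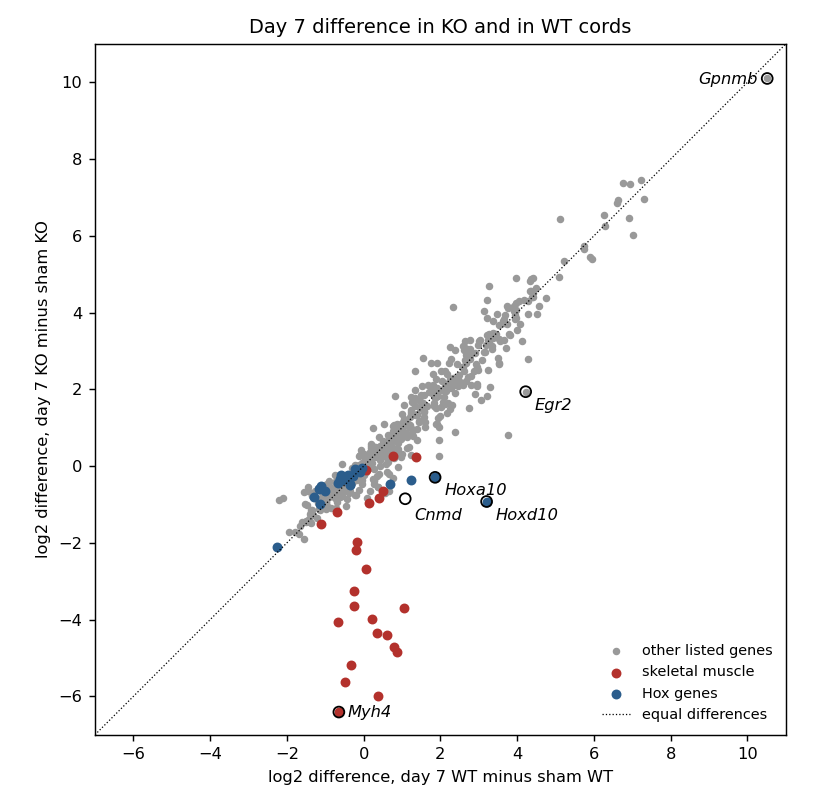
Log2 difference of day 7 minus sham in KO cords (vertical) against WT cords (horizontal) for the listed genes, with skeletal muscle genes in red, Hox genes in blue and 6 named genes ringed. Skeletal muscle genes lie up to 6.41 below zero in KO around a WT median of 0.11, and Cnmd is −0.85 in KO and +1.08 in WT.

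Day 7 was next set against day 3 in the same genotype, to describe the change over the days in between. The day 7 KO arrays are shared with the main comparison. Of 24573 probe sets 7463 passed (30.4%), 3969 higher and 3494 lower at day 7, and of the genes 18.3% were higher and 15.7% lower. The largest increase was 9630013A20Rik, a long noncoding RNA of the oligodendrocyte lineage also called lncOL1. It read 9.739, 9.768, 9.705 and 9.699 in day 7 KO cords, against 4.726, 5.848, 4.261, 4.967 and 5.818 in day 3 KO cords and 7.15 to 7.745 in sham KO cords (+4.60 ± 0.27 over day 3, +2.37 over sham). Day 7 was thus the highest and day 3 the lowest of these stages. Mmp12 rose by 3.73 over day 3, where it read 3.482 to 6.787, and Atp6v0d2 by 3.62. Rassf10 (at least 3.28), the lysosomal channel Mcoln3 (at least 2.97), Kcne1l (2.93), the apolipoprotein Apoc1 (2.57) and Mia (2.53) completed the 8 largest increases.

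Among the 8 largest decreases from day 3 were monocyte attractants, the heme enzyme Hmox1, Arg1 and mitotic genes. Ccl2 read 6.209, 5.614, 5.937 and 5.975 in day 7 KO cords, against 9.722, 8.82, 10.382, 10.314 and 9.21 in day 3 KO cords (−3.76 ± 0.30), and it was still 2.48 above sham. Ccl7 fell by 4.19 to values that no longer differed from sham by the test (+0.76, adjusted p = 0.132). Hmox1 fell by 3.59, Arg1 by 3.28 and the mitotic genes Hmmr and Kif20a by 3.58 and 3.24, all of which were still above sham. The decrease of Arg1 was not called with the 2 day 1 WT arrays regrouped (adjusted p = 0.052). The decreases of Myh4 (−4.94) and the muscle-enriched chaperone Hspb7 (−3.21) are lower bounds in size and rest on day 3 KO replicates 1 and 3, which read 12.226 and 14.419 for Myh4 against 4.36 to 5.794 in the others. Neither was called without day 3 KO replicate 1 or 3 (adjusted p = 0.0945 and 0.143 for Myh4, 0.0714 and 0.162 for Hspb7), nor without any 1 of the day 7 KO arrays (adjusted p = 0.0522 to 0.0785). The count of called probe sets also moved with 1 array, to 4888 without day 3 KO replicate 3.

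Lists differed in their course. All 29 mitotic genes were lower than at day 3 (median −2.14) after medians against sham of −0.05 at day 1 and +4.95 at day 3. For reactive astrocyte genes the median was +3.63 on day 1, +3.44 on day 3 and +2.43 on day 7, and 14 of 24 fell from day 3. Lysosomal genes had a median of +0.29 on day 1, +1.77 on day 3 and +2.09 on day 7, with 12 of 31 higher than at day 3 and 1 lower. Foam macrophage genes stood at +4.02 at day 3 and +4.05 at day 7. Cholesterol synthesis was at −0.03 on day 1, −1.07 on day 3 and −1.32 on day 7, and 10 of its 20 genes fell further after day 3 while none rose. Pan-neuronal genes were at −0.33 on day 1, −1.05 on day 3 and −0.62 on day 7, and 14 of 30 were higher at day 7 than at day 3. Of 15 GABA and glycine genes 11 and of 24 glutamate and dorsal horn genes 13 were higher than at day 3, and none was lower. Endothelial genes fell in 17 of 26 cases, with a median over sham of −0.20 at day 7 and +0.79 at day 3. Of the 5 groups used here the day 3 KO arrays varied most, with a median SD of 0.21 over tested genes, against 0.0839 in day 7 KO cords.

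**Figure D5:**
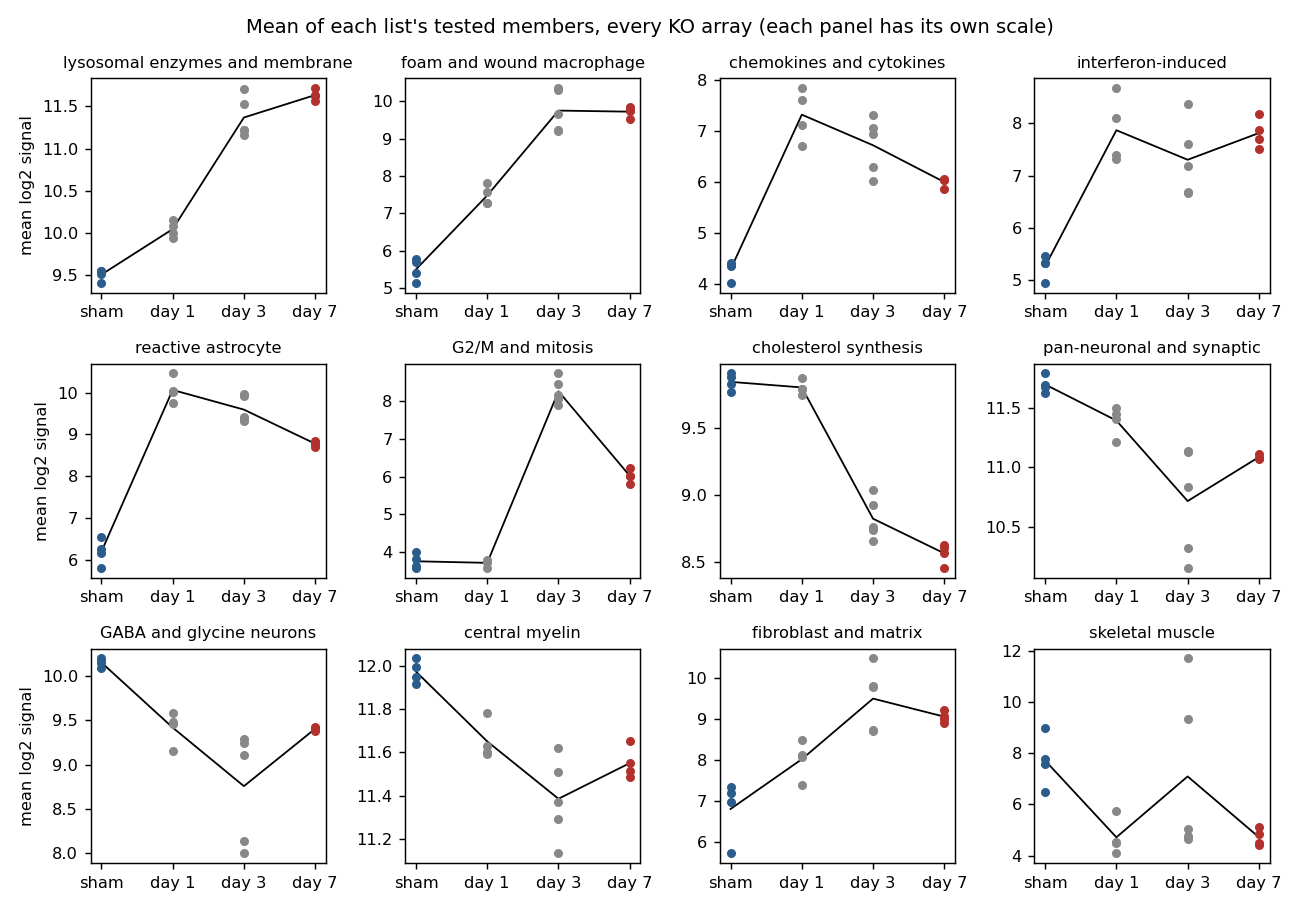
Mean log2 signal over the tested members of 12 lists in every KO array at sham (blue), day 1, day 3 (grey) and day 7 (red), with a line through the group means and a separate scale for each panel. The mitotic list stands at 8.26 at day 3 and 6.02 at day 7, and the lysosomal list at 11.37 and 11.64. Among the 12 lists the day 7 arrays spread most for skeletal muscle (4.429 to 5.11) and interferon-induced genes (7.512 to 8.18).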

How the data were processed

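Expression was measured on 34 single-colour Affymetrix arrays, 1 for each sample, from total RNA extracted with Trizol and labelled as biotinylated cRNA, per the labels' protocols. The values are the authors' deposited log2 signals for 45101 probe sets, made with GCRMA per the submitters' processing notes (version not given in the sources used here), and were used as deposited. About 33.7% of values lie within 0.1 of the lowest, 2.17. GCRMA sets dim probe sets near this floor, which shrinks their spread and differences. A group with a mean below log2 3, or with at least 2 arrays at the probe set's own lowest value over all arrays, was called near the floor and its differences lower bounds. After 64 control probe sets were left out, 24573 probe sets that reached log2 4 on 4 or more arrays were tested with limma 3.58.1 in R 4.3.3, as 8 group means over 34 arrays (26 residual degrees of freedom), with Benjamini-Hochberg adjustment over all of them. The threshold was an adjusted p of 0.05. Errors of differences are the fit's standard errors. Each gene was represented by its brightest tested probe set that names 1 gene in the platform annotation (11998 genes), and 932 probe sets on the array name several genes and 9160 none. Other probe sets of a named gene could differ less. Besides the genes where this is stated, another probe set of Atp5g1, Bpgm, Gfra1, Slc2a1, Slc6a9 and Trdn did not pass against sham (adjusted p up to 0.293, limma).

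Genes are named by rule: the 10 largest increases and decreases, the 10 smallest p-values in each direction, the 10 largest decreases outside the muscle list, up to 4 leading members of each of 35 lists with members called against the list's direction, 5 genes for the genotype comparison and 8 in each direction against day 3. Others are marked as named after their values were seen. Members and lists were chosen with earlier results of these data known, and many lists overlap. Promoter sequences are from RefSeq (GRCm38.p6). Replicate numbers did not pair arrays: the deviations of same-numbered day 7 KO and sham KO arrays correlated at 0.008 to 0.033. No 2 arrays were identical. Alternatives were other filters and scalings, array weights, a fit on the compared arrays, averaging the probe sets of a gene, other groups for 2 day 1 WT arrays with conflicting labels, and leaving out each array. The fit was checked on simulated data. Precision is limited by the 4 arrays in a group. In the main fit, p-values rest on the spread within groups pooled over all arrays of the study, including groups not compared.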

Additional observations from a re-analysis of the deposited data

Results flagged for a closer look

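In groups of 4 arrays, a value was singled out where its gap to the nearest other array divided by the group's range passed Dixon's critical value. Of 347 such groups of named genes 20 met this, where chance gives about 1 in 20, and 70 list means were also tested. Explanations were not tested.

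In the day 7 KO arrays, replicate 1 stood apart for Msr1 (9.265), Gpr34 (9.676), Csf3r (7.861), Slc32a1 (9.67) and the mean of the chemokine list (5.87). Replicate 2 stood apart for Cp, which encodes ceruloplasmin (9.321). Replicate 3 stood apart for Idi1 (10.467), Hmox1 (8.619), Stmn4 (11.399) and the beta-globin gene Hbb-b2 (5.516), and replicate 4 for Mmp9 (5.09). None of these lay over 1 log2 unit from its nearest neighbour.

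In the sham KO arrays, the library labelled replicate 2 stood apart most often. It was lowest for Egr2 (3.776), Cxcl10 (3.986), Bmp4 (4.581), Col3a1 (6.76), Vwf (3.727) and Cp (5.507), and for the mean of the complement (6.124), Fc receptor (4.236), chemokine (4.015) and antigen presentation (5.449) lists. On Ntrk2 probe set 1435196_at it was highest (8.591), with the other 3 at 2.826. Replicate 1 was lowest for Vcan (8.35) and Hoxd10 (6.73), replicate 3 was lowest for Cartpt (8.775) and highest for the mean of the oligodendrocyte precursor list (8.634), and replicate 4 was highest for Cd36 (5.48).

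In the main fit the day 7 response of Cnmd differed between KO and WT, by −1.93 log2 units in the test of the difference itself. Its signal was low. The call was lost when any of several single arrays was left out, and in a fit on only the arrays compared (adjusted p = 0.0616, limma).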

How the results depend on the processing

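The count of probe sets called for day 7 KO against sham KO was 10147 to 15648 over the alternatives that kept every array and 10090 to 10948 when 1 array was left out, against 11603. At 1.5-fold it was 5204 to 5774 with 1 array left out. The genotype difference gave 8 probe sets with no filter, 0 with the stricter filter, 48 with array weights, 0 with 2 day 1 WT arrays grouped by source and time, 39 in a fit on only the arrays compared, and 0 to 3 with 1 array left out. Day 7 KO against day 3 KO gave 4572 with those day 1 WT arrays regrouped, 3453 in a fit on the arrays compared, and 4888 to 9040 with 1 array left out. With replicate number as a block, in a fit on the arrays compared, the 3 comparisons gave 13624, 0 and 2117, and the numbers do not pair the arrays. The causes were not tested. The Cnmd genotype difference was called in neither of these fits on the arrays compared (adjusted p = 0.0616, and 0.134 with the block) nor with the day 1 WT arrays regrouped (0.9999). Cfp reversed, to +0.48 with the mean of its probe sets.

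With no filter on dim probe sets the sham calls of Abcc9, Acta1, Ak7, Hoxb6, Myl1, Mylpf, Myot, Slco1c1, Smpx, Tnni2 and Vip were lost (adjusted p = 0.0526 to 0.0933). Among named genes, 3697 results kept direction and call, 133 lost the call, 23 gained it and 1 reversed. List medians moved by less than the spread between arrays in 602 cases and by more in 28. Quantile normalization and median centring shifted the median of all genes by −0.03. Dim probe sets near the floor limit the size of a difference, and 3 of 26 lymphocyte genes could be tested.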

Other observations

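After 9630013A20Rik was seen to lead the increases over day 3, other genes known from newly formed or premyelinating oligodendrocytes were looked up, so their choice followed the data. Rassf10, with the same course, read 6.046, 6.594, 6.01 and 6.118 in day 7 KO cords, against 2.426 to 3.218 in day 3 KO cords and 3.351 to 4.513 in sham KO cords. Tcf7l2, a transcription factor of this stage, read 7.984, 7.909, 8.084 and 7.739 in day 7 KO cords and 6.02 to 6.545 in sham KO cords (+1.62 ± 0.13). Itpr2, a calcium release channel, read 8.663 to 8.828 in day 7 KO cords and 7.478 to 7.568 in sham KO cords (+1.24). Fyn, a kinase of myelin initiation, differed by +0.70 and Sirt2, a deacetylase of oligodendrocytes, by +0.60, and neither overlapped between the groups. Enpp6, an enzyme of newly formed oligodendrocytes, read 9.551 to 9.638 in day 7 KO cords and 9.075 to 9.313 in sham KO cords (+0.39, adjusted p = 0.0427). Gpr17, a receptor of committed precursors, read 8.988 to 9.179 in day 7 KO cords and 7.875 to 7.944 in sham KO cords. The 2 groups did not overlap (+1.18), but the gene did not pass (adjusted p = 0.223, limma). The shared estimate of the spread includes day 3 WT cords, where Gpr17 read 2.578 in replicate 2 and 8.654 to 9.207 in the others. Tmem163 differed by +0.12 and did not pass (adjusted p = 0.586). These values stand beside a median of −0.34 for genes of mature central myelin.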
